A study of Mus musculus with 15 samples.

Results

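The comparison described here is the first step of a directed change of fate in cultured optic tissue: mouse neural retina epithelium taken at Day 10 against the same kind of tissue after the first days of GSK3 inhibition, at Day 12. All 5 groups of the study came from 1 embryonic stem cell line, EB5 Rx::GFP+/-, in which one copy of the eye field gene Rax (Rx) carries a GFP reporter. The stem cells had been kept in 2i medium with CHIR99201 in all groups alike, and were then grown as floating aggregates in Matrigel (SFEBq, a serum-free culture of quickly formed aggregates, here with optic epithelium around their periphery) up to Day 10. GFP-positive epithelium was then cut out with forceps, not sorted by flow cytometry, so cells next to it could be carried over in any group. The Day 10 Rx::GFP+ group (day 10, 3 libraries) was collected at once. The Day 12 +Wnt group (day 12, 3 libraries) was cultured on as explants in retinal maturation medium with CHIR99201, an inhibitor of GSK3, at 3 μM for the first 24 h and 1 μM after that. The Day 12 +Fgf group (day 12, 3 libraries) was cultured in the same base medium with human recombinant bFgf and serum and is used below to show where +Wnt tissue differed from other tissue of the same age. Between Day 10 and Day 12 +Wnt the age, the explant culture, the medium and the inhibitor changed together. A Day 12 explant without either agent was not analysed here, so what each contributed cannot be told apart. The tissue is bulk: fewer cells of a type and less RNA per cell cannot be told apart in any value below.

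Of 23244 entries in the expression table, 13845 reached 1 CPM, reckoned on the library's own read total, in at least 3 of the 15 libraries of the series, and these are the genes compared. The libraries of the series held 12556998 to 16175450 gene-assigned reads, and 1 read stood for 0.062 to 0.0764 CPM as deposited (read counts scaled to library size by the authors), the scale of all levels below. Differences were fitted with limma on log2(CPM + 0.3), with one estimate of spread from all 5 groups, and p-values were adjusted over the 13845 genes (Benjamini-Hochberg). "Rose" and "fell" are used only for genes with an adjusted p under 0.05, log2 fold changes are given as estimate ± standard error on the log2(CPM + 0.3) scale, which understates the change of low genes, and n = 3 libraries in each group. A signed value in parentheses after a gene, with no unit, is that log2 fold change for Day 12 +Wnt against Day 10 unless +Fgf is named, and values with CPM are levels. The series text calls the triplicates biological, but which aggregates went into which library is not given in the sources used here.

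In canonical Wnt signalling, GSK3 sits in a cytoplasmic complex with Axin and APC that marks β-catenin for destruction. When GSK3 is blocked, β-catenin builds up, enters the nucleus with TCF and LEF factors and turns on target genes, many of which are themselves inhibitors of the pathway. In the vertebrate eye, β-catenin activity is known for promoting retinal pigmented epithelium (RPE), in part through Mitf and Otx2, while Fgf signalling promotes neural retina (NR). GSK3 also acts outside this pathway, on glycogen synthase, on Myc stability and on other substrates, so a GSK3 inhibitor is not a pure Wnt stimulus.

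The 2 groups were far apart. Of the 13845 genes, 8330 (60.2%) changed, 4236 (30.6%) upward and 4094 (29.6%) downward, and 908 (6.56%) rose and 539 (3.89%) fell by at least 2-fold. These percentages are the background against which each gene group is read below, together with the median log2 fold change over all tested genes, 0.0085. Most changes were small: the median absolute log2 fold change was 0.297. Replicates did not overlap between the groups for 8898 genes (64.3%). By the edgeR quasi-likelihood test on the reads recovered from the deposited values, 8330 genes passed, 4207 upward and 4123 downward. The total was equal, but the calls were not all the same.

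RNA integrity differed between the groups as well: by the study's own measurements it was lower in each Day 10 library than in each Day 12 +Wnt library. With the integrity number as a covariate, 6941 genes changed in place of 8330, 849 rising and 581 falling by at least 2-fold. Of the groups described below, the number that rose was then 2 in place of 5 for Wnt ligands, 3 in place of 6 for secreted Wnt regulators, 1 in place of 3 for pigment epithelium factors, 6 in place of 11 for regional brain factors, 2 in place of 4 for Zic genes, 8 in place of 13 in the BMP and TGF-β pathway, 1 in place of 3 in the Hedgehog list, 3 in place of 5 among cyclins and their inhibitors, 1 in place of 2 for integrins, and 10 in place of 17 for sterol genes. The number that fell was 3 in place of 5 for Wnt feedback targets, 7 in place of 11 for epithelial and mesenchymal genes, 3 in place of 5 for transmitter receptors, and 1 in place of 5 for the respiratory chain. Among the other counts, 28 in place of 30 early neuron genes rose and 1 fell, 43 lysosomal genes rose, 29 genes of the Myc and ribosome biogenesis list fell, and so did 25 YAP and SRF targets, 16 Fgf feedback targets and 11 eye field factors. Single genes named below that missed the threshold under this covariate alone among the alternatives were Otx2 (adjusted p = 0.06), Sp5 (0.27), Eomes (0.1), Lhx1 (0.089), Neurog1 (0.13), Id4 (0.085), Fgf8 (0.2), Dkk2 (0.072), Dcn (0.14) and Ocln (0.058). Those that missed it under this covariate and elsewhere too were Tbr1 (0.46), Rspo1 (0.38), Rspo3 (0.55), Wnt7b (0.2), Wnt9a (0.086), Wnt10a (0.12), Sox1 (0.3), Pax3 (0.29), Ccnd2 (0.29), Foxd1 (0.22), Neurod6 (0.42), Dact1 (0.19), Bambi (0.16), Nkd2 (0.055), Ctnnb1 (0.05), Fgf18 (0.11), Dmbx1 (0.078), Ctsd (0.098) and Ttr (0.068).

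**Figure D1:**
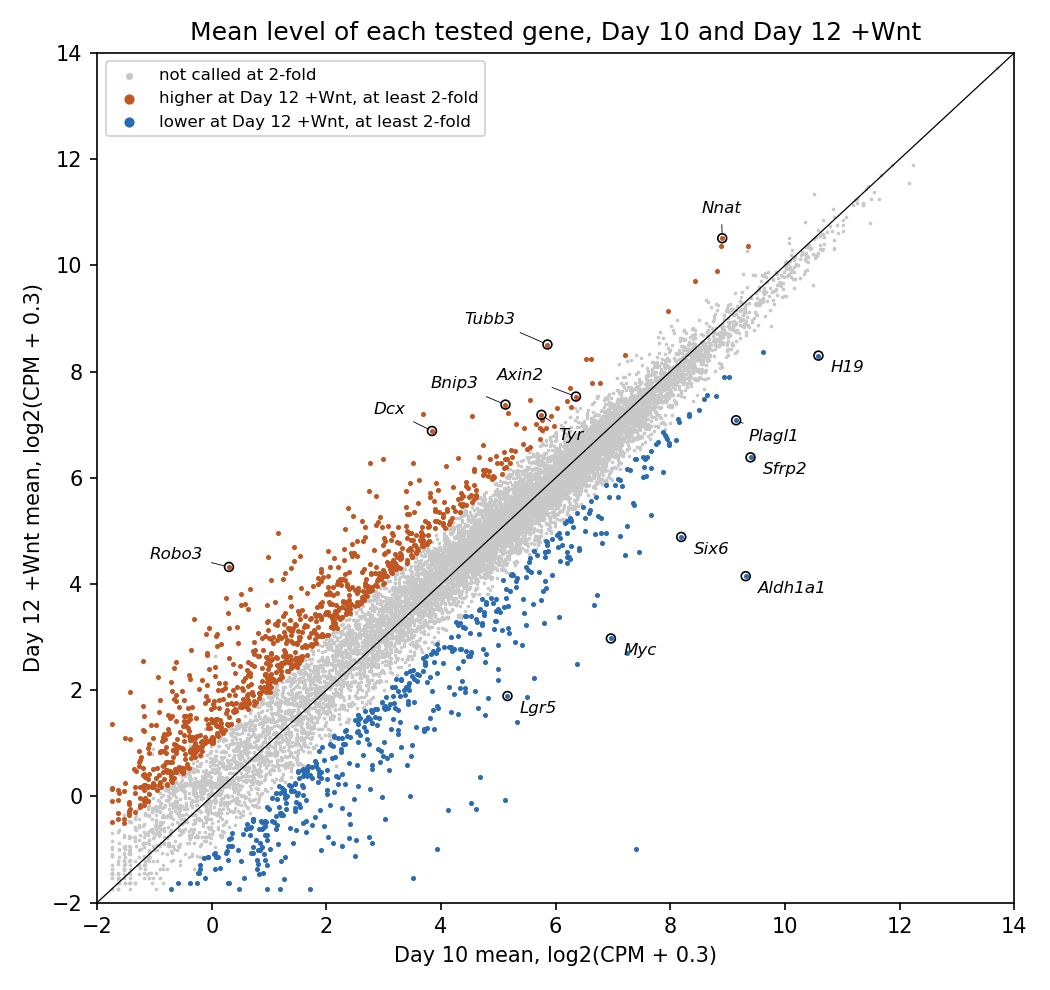
Mean log2(CPM + 0.3) of the 13845 tested genes at Day 10 (x axis) and Day 12 +Wnt (y axis), with genes past the test and at least 2-fold apart in orange (908 higher) and blue (539 lower) and the line of equal level drawn. Aldh1a1, Lgr5 and Myc lie among those well below the line, and neuronal genes such as Tubb3, Dcx and Robo3 lie among those above it.

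The genes that fell most included genes of the dorsal eye, secreted factors and Myc. Aldh1a1 (chr19:20492715-20643465, coordinates here and below from the mm10 annotation), a retinoic acid synthesis enzyme of the dorsal retina, went from 596, 552 and 763 CPM to 10.8, 29.6 and 11.8 CPM, a log2 fold change of -5.31 ± 0.51 (adjusted p = 2e-07). Among the 12 leading falls were also Sema3e (-5.27), Gdf6 (-4.93), F5 (-4.82), Dio3 (-4.64), Aldh1a7 (-4.57), Lgals3 (-4.39), Sowaha (-4.35), Myc (-3.99), Ptrf (-3.94) and Wfdc1 (-3.88), all as log2 fold changes. Sema3e is a secreted guidance cue, Gdf6 a BMP-type ligand needed for eye growth, Dio3 an enzyme that inactivates thyroid hormone, and Lgals3 a galectin. Ptrf encodes a coat protein of caveolae. Aldh1a7 is a close paralog of Aldh1a1, so reads of the pair may not have been fully separated.

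Several genes known from neurons were among the 12 that rose most. Robo3 (chr9:37415669-37433246, minus strand), a receptor of commissural axons, stood at 1.16, 0.334 and 1.3 CPM at Day 10 and 15.7, 23.7 and 19.6 CPM at Day 12 +Wnt, a log2 fold change of 4.11 ± 0.46 (adjusted p = 1.2e-06). Nalcn, the sodium leak channel, went from 1.5, 2.34 and 1.91 to 33.6, 29.4 and 29.9 CPM (3.83 ± 0.19, adjusted p = 2e-10). All 12 were chosen to have no overlap between the groups. The others were Scrt2 (3.63), a repressor found in postmitotic neurons, Tex15 (3.54), 3632451O06Rik (3.53), Masp1 (3.47), Cntn2 (3.36), an axonal adhesion molecule, Nxph4 (3.34), Dner (3.25), Akap6 (3.21), Synpr (3.16), a synaptic vesicle protein, and Uncx (3.12), a homeobox factor.

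Wnt feedback targets, the genes that β-catenin is best known to induce and that mostly restrain the pathway, rose more often than not. Of 18 tested members, 10 rose, 5 fell and 3 did not pass, and the list median was 0.45 against 0.0085 for all genes. Axin2 (chr11:108920349-108950783), a scaffold of the destruction complex and the usual readout of the pathway, stood at 76.3, 82.9 and 85.2 CPM at Day 10 and 174, 180.3 and 199 CPM at Day 12 +Wnt, with no overlap. Its log2 fold change was 1.18 ± 0.23 (adjusted p = 0.00032). In Day 12 +Fgf tissue Axin2 had gone the other way, to 31.2, 37.7 and 19.3 CPM, and the +Wnt minus +Fgf difference was 2.69 ± 0.23 (adjusted p = 4.4e-08). The annotation has an exon on the opposite strand within Axin2, and the strand setting of the counting is not given in the sources used here.

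All 3 tested secreted inhibitors of the list rose. Dkk1, which blocks the Lrp co-receptors, went from 12.3, 9.76 and 14.7 to 31.2, 28.5 and 34.1 CPM (1.35 ± 0.18, adjusted p = 8.9e-06). Wif1, which binds Wnt ligands, rose with a log2 fold change of 1.49, and Notum, the lipase that strips the lipid from Wnt ligands, with 1.08. Among membrane and cytoplasmic inhibitors, Apcdd1 showed the largest rise of the list, from 18.9, 17.7 and 21.6 to 69.2, 83.7 and 95.3 CPM (2.07 ± 0.23, adjusted p = 1.3e-06). Rnf43 and Znrf3, the ubiquitin ligases that remove Frizzled receptors from the surface, rose by 1.51 and 0.41, Nkd1 by 0.45 and Dact1 by 0.44. The zinc finger factor Sp5 went from 11.1, 10.4 and 13.8 to 24.4, 23.6 and 25.6 CPM (1.05 ± 0.32, adjusted p = 0.0086). Of the risen members, Dact1 missed the threshold when 1 of 4 libraries was left out (adjusted p 0.075 without Day 10 replicate 1, 0.11 without Day 10 replicate 3, 0.078 without Day 12 +Wnt replicate 1 and 0.095 without replicate 3).

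Other members moved the opposite way. Lgr5, the R-spondin receptor and stem cell marker, fell from 29.9, 44.1 and 32.2 to 3.46, 2.92 and 3.84 CPM (-3.26 ± 0.15, adjusted p = 1.1e-10), and Ccnd1, the D-type cyclin, from 172, 200.4 and 195 to 102, 70.2 and 74.6 CPM (-1.21 ± 0.14, adjusted p = 1.3e-06). Nkd2 (-0.73), the BMP pseudoreceptor Bambi (-0.69) and Tcf7 (-0.31) also fell. Lef1 (0.27, adjusted p = 0.25) and Sp8 (0.01, adjusted p = 0.96) did not pass the test. Some of these falls rested on single libraries. Nkd2 missed the threshold without any library but Day 12 +Wnt replicate 2 (adjusted p 0.06 to 0.13), Tcf7 without Day 10 replicate 2 (0.19) or Day 12 +Wnt replicate 1 (0.063) or 2 (0.11), and Bambi without Day 12 +Wnt replicate 1 (0.051), so 2 members fell when Day 12 +Wnt replicate 1 was left out and 3 when Day 10 replicate 2 was. Tnfrsf19 stood at 128, 139 and 143 CPM at Day 10 and 278, 283 and 281 CPM at Day 12 +Wnt without overlap, but its adjusted p was 0.086. The fit shares its spread among all groups, including the later groups of the series that are not described here. Tnfrsf19 varied in Day 12 +Fgf (58.9, 60.7 and 26.8 CPM), where replicate 3 stood apart. How much each group outside the comparison added to the spread was not tested. With only the 6 libraries compared, the adjusted p of Tnfrsf19 was 8.7e-08. Wnt8b (0.11 with all groups, 3.2e-05 with 6 libraries), Wnt3a (0.12 and 0.0026), Rspo2 (0.17 and 0.00075) and Emx2 (0.34 and 0.00019) were in the same position.

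Promoter windows from RefSeq (build GRCm38.p6, 250 bases before to 50 after each start site) could be matched for 12 of the 18 tested feedback targets. The letters CTTTGAA or CTTTGAT, a core to which TCF and LEF factors bind, were searched on both strands and occurred in 4 of these 12 (33.3%), against 9.88% of the 27025 genes with a window and 6.77% of the 10199 tested ones. Of genes that rose at least 2-fold, 61 of 639 with a window held the letters (9.55%), and of those that fell at least 2-fold, 26 of 378 (6.88%). The windows of Sp5 (chr2:70474673-70474972, plus strand) and Dkk1 (chr19:30549447-30549746, minus strand) are shown because both genes rose and hold one match each, beginning 104 and 117 bases before the start site. Each is written 5′ to 3′ on the strand of the gene, with the matched letters in capitals.
Sp5: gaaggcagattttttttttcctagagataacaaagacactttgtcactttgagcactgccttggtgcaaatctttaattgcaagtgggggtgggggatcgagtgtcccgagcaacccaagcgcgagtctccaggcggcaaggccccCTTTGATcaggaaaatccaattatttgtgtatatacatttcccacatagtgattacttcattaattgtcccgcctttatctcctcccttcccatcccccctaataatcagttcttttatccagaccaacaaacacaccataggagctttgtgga
Dkk1: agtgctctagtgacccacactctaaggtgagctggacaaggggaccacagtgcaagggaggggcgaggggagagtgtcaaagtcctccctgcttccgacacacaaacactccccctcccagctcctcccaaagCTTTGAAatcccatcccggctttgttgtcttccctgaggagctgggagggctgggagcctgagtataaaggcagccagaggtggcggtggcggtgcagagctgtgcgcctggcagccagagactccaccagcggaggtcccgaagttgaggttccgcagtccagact
The other matches were in the windows of Sp8, which did not pass the test, and Tnfrsf19. A match of letters is not a site shown to be bound.

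Wnt ligands changed less uniformly. Of 16 tested ligand genes, 5 rose, 1 fell and 10 did not pass. Of all tested genes 30.6% rose and 29.6% fell, so the rises were near that share. Wnt7b, a canonical-type ligand of the pigmented epithelium, went from 79.9, 61.3 and 101 to 151, 169 and 155 CPM (1.0 ± 0.32, adjusted p = 0.012). Wnt5a, the main non-canonical ligand, went from 18.1, 13.7 and 17.3 to 29.3, 33.3 and 30.5 CPM (0.92 ± 0.14, adjusted p = 3.2e-05). Both changed without overlap between groups. Wnt10a (1.08), Wnt16 (0.79) and Wnt9a (0.45) also rose, the first 2 from means of 0.352 and 1.77 CPM. Wnt9b fell from a mean of 2.28 to 0.361 CPM (-1.95 ± 0.36). Wnt8b (55.1, 48.5 and 61.1 to 91.3, 129 and 129.7 CPM) and Wnt3a (9.68, 6.22 and 9.7 to 12.6, 15.5 and 15.6 CPM) did not overlap but missed the threshold, as said above. The ligands Wnt11 (0.63), Wnt5b (0.22), Wnt2b (0.03), Wnt6 (-0.03), Wnt1 (-0.04), Wnt4 (-0.18), Wnt7a (-0.2) and Wnt3 (-0.25) did not pass either. The number of ligands that rose was 3 without Day 10 replicate 2, where Wnt7b (adjusted p = 0.063) and Wnt9a (0.09) missed the threshold, and 8 by edgeR. Wnt9a also missed it without Day 12 +Wnt replicate 2 (0.06).

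Secreted regulators of Wnt ligands moved in both directions. Rspo1, a secreted R-spondin that keeps Frizzled receptors on the surface, rose from 49.3, 29.7 and 51.7 to 95.5, 139 and 134 CPM (1.51 ± 0.51, adjusted p = 0.018), and Rspo3 from 34, 24.5 and 34.2 to 69.1, 86.2 and 100.0 CPM (1.45 ± 0.56, adjusted p = 0.034). Wls, which carries Wnt ligands to the surface, rose with a log2 fold change of 0.96. The secreted antagonist Sfrp2 fell from 656, 679 and 689.7 to 88.8, 83 and 78 CPM (-3.02 ± 0.06, adjusted p = 1e-14). Dkk3, another member of this list, fell from 102, 101 and 114 to 13, 13.2 and 14.8 CPM (-2.93 ± 0.08, adjusted p = 3.1e-13). The antagonist Sfrp1, at 320.1, 312 and 271 CPM, rose to 441, 446 and 429 CPM (0.54 ± 0.11), and Dkk2 rose from a mean of 1.1 to 2.91 CPM. In all, 6 of 13 tested members rose and 2 fell. Neither R-spondin overlapped between the groups, but both calls lay near the threshold in the fit that shares its spread among all groups. Rspo1 missed the threshold without Day 10 replicate 2 (adjusted p = 0.078) or without Day 12 +Wnt replicate 2 (0.054) or 3 (0.051), and Rspo3 without any library but Day 12 +Wnt replicate 1 (0.055 to 0.1).

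Receptors and core components split by gene. Of 36 tested, 10 rose and 13 fell, where 30.6% and 29.6% of all tested genes did, so neither count was far from that share. The median was -0.03. Fzd5, the Frizzled receptor of the optic vesicle, fell from 161, 197 and 169 to 23.1, 24.8 and 24 CPM (-2.85 ± 0.12, adjusted p = 4.1e-11). Fzd4 rose from 50.7, 57.6 and 49 to 108, 97.4 and 112 CPM (1.01 ± 0.10, adjusted p = 2.1e-07), and Fzd9 from a mean of 3.82 to 12.4 CPM (1.65 ± 0.20). The co-receptor gene Lrp5 (-0.93) and the repressive factor Tcf7l1 (-0.82) fell. Apart from Axin2, described above, the genes of the destruction complex named here moved little: Ctnnb1, which encodes β-catenin, rose by 0.1, Axin1 (-0.21) fell, and Gsk3a (-0.1), Gsk3b (0.11) and Apc (0.09) did not pass the test. At this size single libraries set the call: Ctnnb1 did not pass when Day 10 replicate 1 (adjusted p = 0.073) or 3 (0.093) or Day 12 +Wnt replicate 1 (0.12) or 2 (0.051) was left out, Gsk3a passed without Day 12 +Wnt replicate 1 (0.038), and Gsk3b without replicate 2 (0.048).

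**Figure D2:**
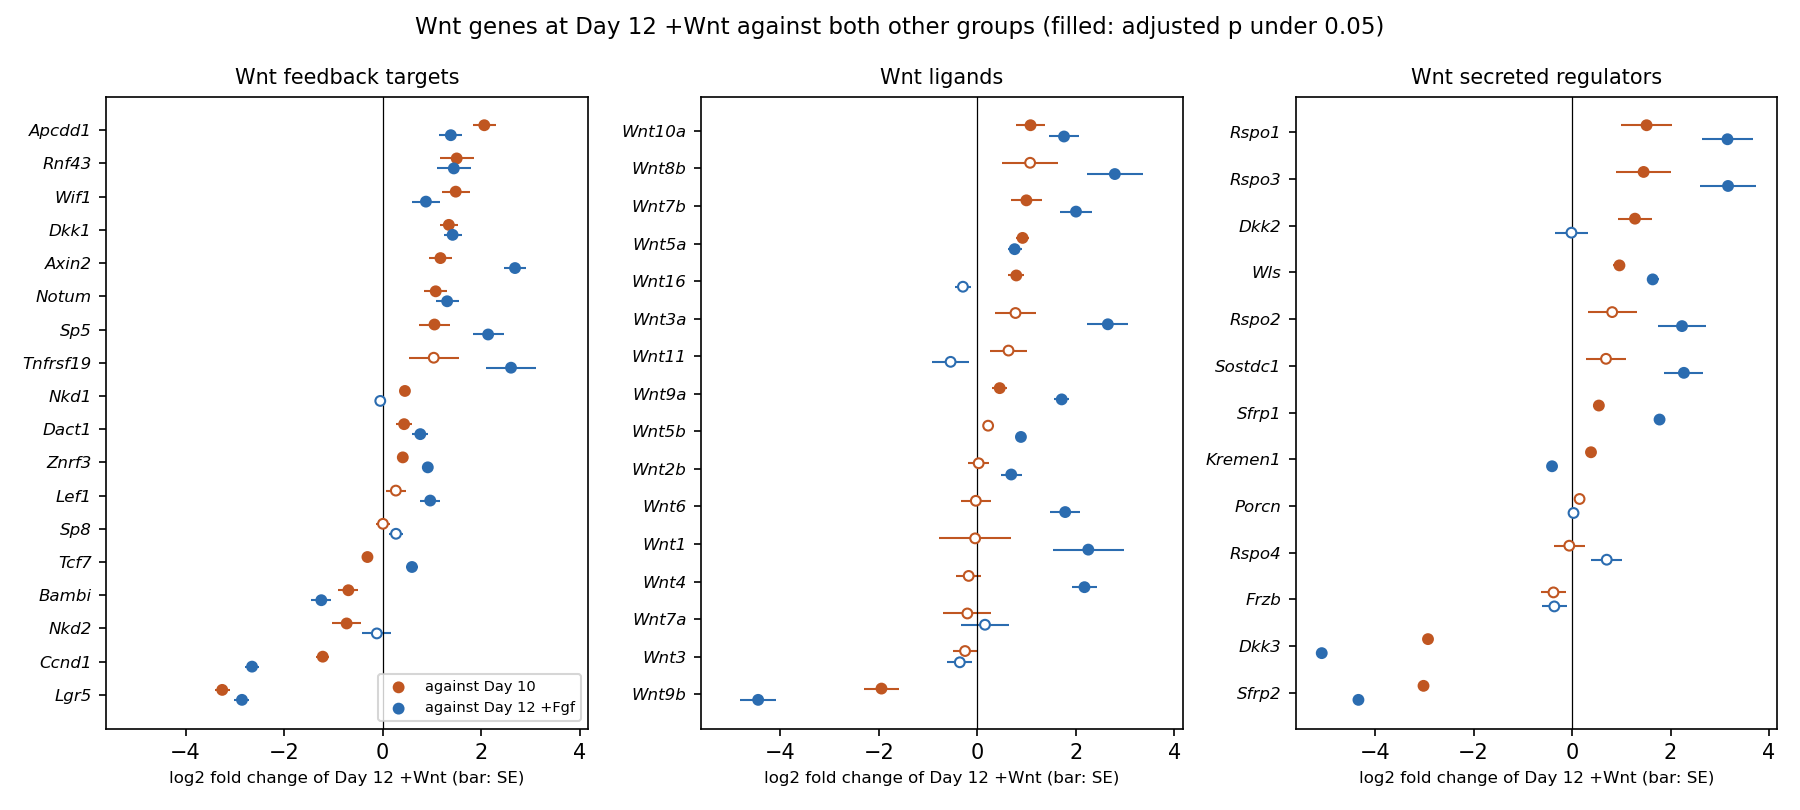
Log2 fold change (x axis, bar: standard error) of the tested Wnt feedback targets, ligands and secreted regulators at Day 12 +Wnt against Day 10 (orange) and against Day 12 +Fgf (blue), with filled points for adjusted p under 0.05. Axin2 was 1.18 above Day 10 and 2.69 above Day 12 +Fgf, and Lgr5, Sfrp2 and Dkk3 were below both groups.

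Against Day 12 +Fgf tissue, 12 of the 18 feedback targets were higher in +Wnt and 3 lower, where 25.2% and 26.3% of all tested genes were. By at least 2-fold, 7 were higher and 3 lower, against 6.53% and 6.15% of all tested genes. Nkd1 was one of the members that did not differ by this test (-0.05, adjusted p = 0.6), although it rose from Day 10, and its mean was 101 CPM in +Wnt and 104 CPM in +Fgf. The same held for Dkk2 (-0.01, adjusted p = 0.98) and Wnt16 (-0.29, adjusted p = 0.14).

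Eye field factors, which set up and maintain retinal identity, mostly fell. Of 17 tested eye field and neural retina factors, 11 fell, 3 rose and 3 did not pass, with a median of -0.8. Six6 (chr12:72939892-72944899) fell from 273, 318 and 285 to 29.4, 31.8 and 26.6 CPM (-3.31 ± 0.13, adjusted p = 3.4e-11), and Six3 from 179, 202 and 176 to 79.6, 74.6 and 66.2 CPM (-1.34 ± 0.08, adjusted p = 1.5e-09). Rax, the gene behind the reporter, fell from 174, 156 and 163 to 43, 51.1 and 39.9 CPM (-1.88 ± 0.08, adjusted p = 7.6e-11). All groups carry one reporter copy of Rax, and an annotated antisense transcript overlaps it, as others overlap Six6 and Six3.

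Other factors kept a larger part of their level. Pax6, the central eye field factor, fell from 514, 621 and 539.8 to 330.4, 337 and 316 CPM (-0.76 ± 0.05, adjusted p = 7.9e-09), Lhx2 from 471, 495 and 465 to 275, 274 and 270.4 CPM (-0.8 ± 0.07), and Sox2 from 218, 259.7 and 249 to 109.8, 113 and 104 CPM (-1.15 ± 0.06). Tbx3 (-2.99), Hmx1 (-1.74), Meis1 (-0.45) and Lin28b (-0.25) also fell. The progenitor gene Nr2e1 rose from a mean of 24.7 to 45.5 CPM (0.88 ± 0.19), Sox1 from 12.5 to 26.2 CPM (1.09 ± 0.34) and Nr2f2 from 89.8 to 119 CPM (0.4 ± 0.16). Nr2f1 (0.03), Meis2 (-0.06) and Lin28a (-1.02, adjusted p = 0.087) did not pass. The risen members depended on single libraries, and 1 rose when Day 10 replicate 1 or Day 12 +Wnt replicate 1 was left out. Nr2f2 missed the threshold without any of 5 libraries (adjusted p 0.061 to 0.16), Sox1 without Day 10 replicate 1 (0.069) or Day 12 +Wnt replicate 1 (0.064), and Lin28b, among the falls, without Day 10 replicate 2 (0.11) or Day 12 +Wnt replicate 2 (0.055) or 3 (0.084). Rax, Six6, Six3, Pax6 and Sox2 were also lower than in Day 12 +Fgf tissue, whereas Lhx2 did not differ from it by the test (-0.15, adjusted p = 0.088). Without Day 12 +Fgf replicate 2 it did (adjusted p = 0.027).

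GEO's tissue label for the Day 12 +Wnt samples is SFEBq-derived retinal pigmented epithelium, and some genes that define this epithelium were expressed while others were not. Mitf, the master factor of the pigment lineage, was already at 141, 119 and 118 CPM at Day 10 and stood at 141, 134 and 119 CPM at Day 12 +Wnt, a log2 fold change of 0.06 ± 0.07 that did not pass the test (adjusted p = 0.5). In Day 12 +Fgf tissue it stood at 56.2, 58.1 and 58.9 CPM, so the +Wnt minus +Fgf difference, 1.18 ± 0.07 (adjusted p = 1.2e-09), came with a lower level in +Fgf. Otx2, its partner in RPE, rose from 188, 218 and 177 to 248, 246 and 250.0 CPM (0.36 ± 0.09, adjusted p = 0.0027). The annotation has antisense transcription across Otx2. Otx1 (0.2, adjusted p = 0.1), Tfec (-0.09), Tfeb (0.11) and Tfe3 (-0.08) did not pass, while Foxd1 (1.7) and Sox9 (0.36) rose. In all, 3 of 8 pigment epithelium factors rose and 0 fell. Foxd1 stood at 2.32, 2.34 and 1.6 CPM at Day 10 and 13.7, 4.18 and 6.88 CPM at Day 12 +Wnt, and its adjusted p of 0.044 went above 0.05 when any library but Day 12 +Wnt replicate 2 was left out (0.07 to 0.17).

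Genes of melanin synthesis rose in part. Of 19 tested melanin and melanosome genes, 9 rose and 0 fell, with a median of 0.49. Tyr (chr7:87424771-87493512, minus strand), the rate-limiting enzyme of melanin synthesis, rose from 71.5, 48.6 and 40.6 to 163, 145 and 127 CPM (1.47 ± 0.18, adjusted p = 3.3e-06), and Tyrp1 from 36.3, 24.4 and 24.6 to 83.4, 65.1 and 60.1 CPM (1.29 ± 0.14, adjusted p = 8.3e-07). Both were free of overlap. Slc24a5 (1.79), a melanosomal ion exchanger, Mlana (1.52), Gpr143 (1.22), Bloc1s1 (0.83), Atp7a (0.69), Hps1 (0.64) and Rab27a (0.59) rose as well. The matrix protein gene Pmel (694, 513 and 472 to 853, 724 and 575 CPM, 0.36 ± 0.15, adjusted p = 0.052) and the enzyme Dct (193, 172 and 157 to 223, 193 and 193 CPM, 0.22 ± 0.14, adjusted p = 0.17) did not pass. Mlph (0.49), Rab32 (0.32), Oca2 (0.2), Myo5a (0.1), Slc45a2 (0.07), Hps4 (0.04), Rab38 (-0.01) and Gpnmb (-0.33) did not pass either. Gpnmb fell when Day 12 +Wnt replicate 1 was left out (adjusted p = 0.0097), and Mlph rose without Day 10 replicate 1 (0.048). Against Day 12 +Fgf, 17 of the 19 were higher in +Wnt and 0 lower.

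Genes of the mature epithelium were divided. Rlbp1, the retinaldehyde binding protein of the visual cycle, rose from 47.8, 34.6 and 29.6 to 90.5, 85.7 and 74.9 CPM (1.18 ± 0.14, adjusted p = 2.6e-06). Trpm1, a cation channel gene under Mitf control in pigment cells, rose from 761, 622 and 572 to 1382, 1348 and 1241 CPM (1.03 ± 0.11, adjusted p = 1.1e-06), and its relative Trpm3 by 1.09. Ttr (2.34, from a mean of 0.586 CPM), the phagocytosis receptor Mertk (0.89), Ezr (0.7), Stra6 (0.55), Rdh11 (0.49) and Rdh10 (0.22) rose. Ttr missed the threshold without Day 12 +Wnt replicate 2 (adjusted p = 0.061) and by edgeR (0.18). Kcnj13, an apical potassium channel, fell from a mean of 6.06 to 2.76 CPM, and Serpinf1, which encodes PEDF, from 14.9 to 4.68 CPM. Rpe65 and Rgr had no read in any Day 10 or Day 12 +Wnt library, which allows up to 3 reads per library, and Best1 and Lrat, the latter with at most 3 reads in a library, were too low to be tested. By these markers pigment genes were expressed, and Rpe65 and Rgr were not detectable at this depth.

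**Figure D3:**
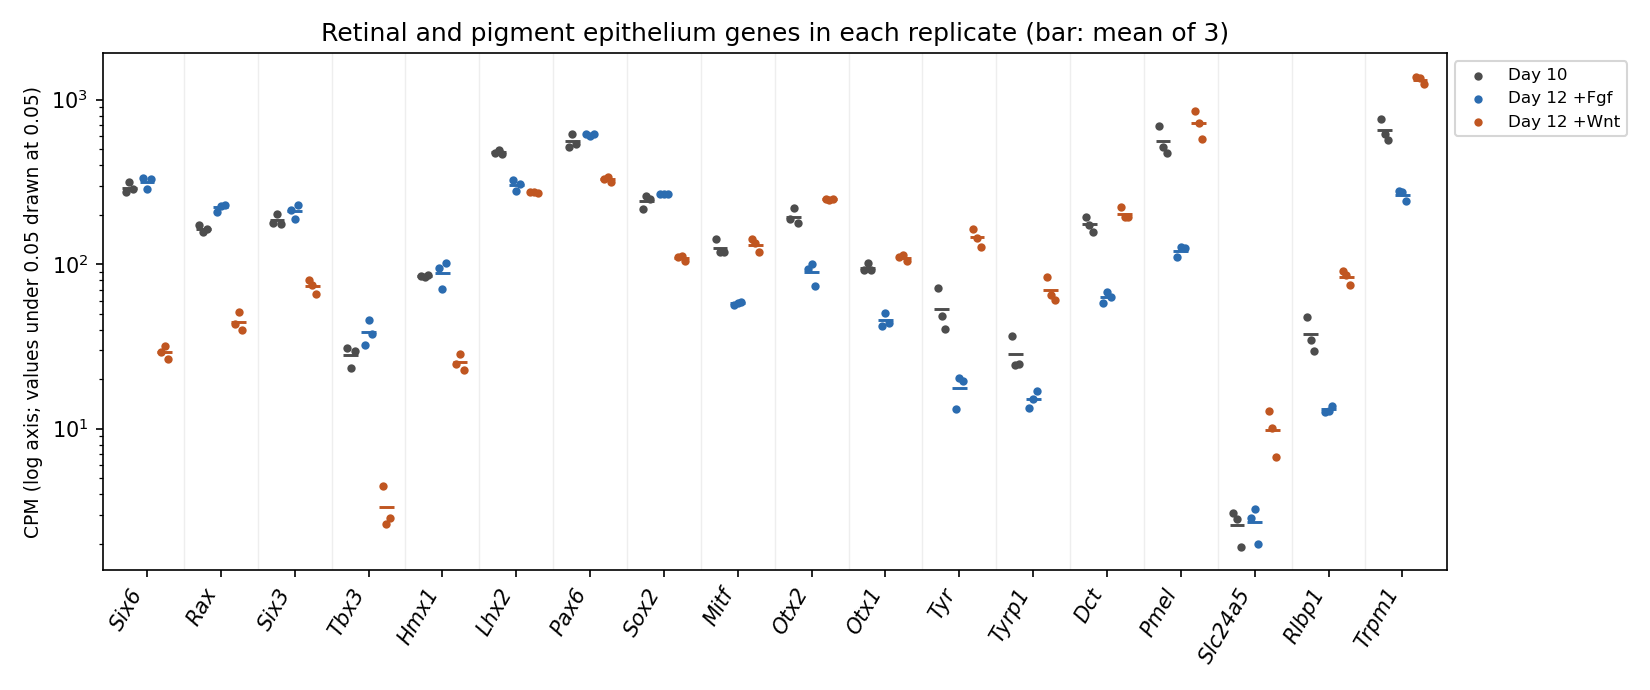
CPM on a log axis of retinal and pigment epithelium genes in each library of Day 10 (grey), Day 12 +Fgf (blue) and Day 12 +Wnt (orange), with bars at the means of 3. Six6 falls from 292 CPM to 29.3 CPM in +Wnt, the Mitf points of both groups overlap, and Tyr rises from 53.6 to 145 CPM.

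Feedback targets of Fgf and MAPK signalling fell. Of 22 tested, 16 fell and 2 rose, with a median of -0.7. The Ets factor Etv5 fell from 47.2, 61.8 and 46.3 to 17.9, 20.9 and 16.4 CPM (-1.47 ± 0.12, adjusted p = 3.2e-08). The ERK phosphatase Dusp6 fell from 55.2, 56.3 and 55.9 to 19.5, 25.3 and 26.7 CPM (-1.23 ± 0.11, adjusted p = 1.6e-07), and the inhibitor Spry2 from 24, 25.3 and 28.7 to 9.18, 9.67 and 9.0 CPM (-1.45 ± 0.09, adjusted p = 2.8e-09). These 3 genes changed without overlap. Immediate early genes fell further, with Fosb (-3.11), Fos (-2.78), Junb (-2.35) and Egr1 (-2.3). Not all members followed: Dusp4 (0.84) and Spry1 (0.37) rose, and Spry4 (-0.02) and Etv4 (-0.18) did not pass. Etv4 passed without Day 12 +Wnt replicate 3 (adjusted p = 0.018).

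Fgf ligand genes moved in both directions, 5 of 11 tested falling and 4 rising. Fgf15, an Fgf of the neural retina, went from 57.4, 62 and 46.4 to 11.2, 7.03 and 9.86 CPM (-2.54 ± 0.19, adjusted p = 1e-08), with annotated overlapping transcripts, and Fgf9 from 9.06, 11.9 and 11.4 to 1.13, 1.74 and 1.32 CPM (-2.71 ± 0.18, adjusted p = 3.4e-09). Fgf8 (-1.11) and Fgf10 (-1.46) fell from low means of 3.9 and 2.55 CPM. The receptors Fgfr1 (-0.2) and Fgfr3 (-0.42) fell slightly, and Fgfr2 (0.05) did not pass. In this list 7 of 16 tested ligand and receptor genes fell and 4 rose, the risen ones being Fgf11, Fgf12, Fgf14 and Fgf18. The first 3 of those encode Fgf relatives that stay inside the cell. Fgf18 missed the threshold without 1 of 4 libraries (Day 10 replicate 1 or 2, Day 12 +Wnt replicate 2 or 3, adjusted p 0.091 to 0.17), and Fgfr3 without any one of 5 (all but Day 10 replicate 2, 0.068 to 0.098).

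Myc and the genes of ribosome production fell nearly as a block. Myc (chr15:61985391-61990374, plus strand) went from 115, 137 and 121 CPM to 7.61, 7.45 and 7.61 CPM (-3.99 ± 0.15, adjusted p = 7.6e-12), a fall of 16.5-fold in the means with tight replicates. Of 30 tested genes of the Myc and ribosome biogenesis list, 29 fell and 0 rose, with a median of -0.61. The 1 exception was Mycl1 (-0.13, adjusted p = 0.24). Rrp12 (72.7 to 24.1 CPM, -1.59), Heatr1 (-1.18), Polr1e (-1.11), the RNA helicase Ddx21 (386 to 179 CPM, -1.11) and Utp20 (-1.06) were among them, and Npm1 (-0.39) and Ncl (-0.53), which encode abundant nucleolar proteins, fell too. Structural proteins of the ribosome moved less. Of 83 tested cytoplasmic ribosomal protein genes, 53 fell and 2 rose, none by 2-fold, with a median of -0.19. Many of them have processed pseudogenes that can share reads. Against Day 12 +Fgf, 22 of the 30 biogenesis genes were lower in +Wnt and 0 higher.

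Targets of YAP and of SRF, which report on tension and the actin cytoskeleton, also fell together. Of 27 tested, 25 fell and 1, the receptor kinase gene Axl, rose. The median was -0.87. Cyr61, a secreted YAP target, fell from 54.3, 52.4 and 53 to 14.2, 12.6 and 11.4 CPM (-2.04 ± 0.12, adjusted p = 9.7e-10), and Ctgf from 34.8, 38.7 and 33.1 to 10.7, 12.2 and 12.4 CPM (-1.57 ± 0.17, adjusted p = 7e-07). The contractile genes Tagln (21.2 to 3.62 CPM, -2.43), Acta2 (14.8 to 2.95 CPM, -2.22) and Cnn2 (61.1 to 17.6 CPM, -1.77) fell. The focal adhesion gene Vcl (-1.14) and the tropomyosin gene Tpm1 (-1.12) fell as well. In Day 12 +Fgf tissue the same 3 contractile genes were at means of 316, 177 and 139 CPM. The +Fgf medium held serum, so this difference between the Day 12 groups cannot be told apart from serum.

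Matrix and adhesion genes moved in both directions. The basement membrane collagens Col4a1 (275 to 105 CPM, -1.48) and Col4a2 (-0.93) fell while Col4a5 (0.94) and Col4a6 (1.23) rose, and 13 of 40 tested collagen genes fell and 8 rose, where 29.6% and 30.6% of all tested genes did. Col13a1 fell most (7.53 to 0.688 CPM, -3.0). Of 17 integrins, 7 fell, led by Itgb8 (26.8 to 5.48 CPM, -2.23), and 2 rose, of which Itgb5, the partner of αv in RPE phagocytosis, went from a mean of 56.4 to 104 CPM (0.88). Only 1 integrin rose without Day 10 replicate 2 or Day 12 +Wnt replicate 3. Among 16 annexin and S100 family entries, 7 fell and 2 rose, with Anxa1 falling from 5.39 to 0.263 CPM (-3.24) and Anxa6 rising from 11.4 to 26.5 CPM (1.21). Of the epithelial and mesenchymal genes, 11 of 24 fell and 7 rose. Cdh11 fell from 522 to 239.6 CPM (-1.12), Cdh2, the N-cadherin of neuroepithelium, rose from 443 to 618 CPM (0.48), and the epithelial genes Epcam (1.46), Cldn3 (1.46) and Ocln (1.07) rose from low levels.

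Of the genes that pattern the eye along its dorsoventral axis, 5 of 7 tested dorsal ones fell and 0 rose, while 3 of 6 ventral ones fell and 3 rose. Gdf6 and the T-box factors of the dorsal retina were among the steepest: Tbx5 went from 16.1, 16.2 and 20.6 to 2.14, 3.62 and 2.32 CPM (-2.61 ± 0.43, adjusted p = 7.7e-05), and Tbx2 from 157, 131 and 131 to 30.9, 33.1 and 24.9 CPM (-2.23 ± 0.17, adjusted p = 1.5e-08). Gdf6 went from 16.3, 14.8 and 13.5 to 0.126, 0.278 and 0.199 CPM. On the ventral side Pax2, the optic stalk factor, fell from 21.9, 29.1 and 24.4 to 9.69, 6.06 and 8.21 CPM (-1.63 ± 0.30, adjusted p = 0.00022), as did Vax2 (-0.74). The ventral genes Ntn1 (1.29), Ephb2 (0.46) and Ephb3 (0.41) rose. Without Day 10 replicate 3 the falls of both sides were 5 in place of 8, Vax2 being one of those lost (adjusted p = 0.062). Of 7 tested genes with a Tbx symbol, 4 fell, namely Tbx2, Tbx3, Tbx5 and Tbx20 (-2.79), and 0 rose. The T-box genes Tbr1 and Eomes, given below, rose.

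Of 17 tested retinoic acid genes, 8 fell, 2 rose and 7 did not pass. Besides Aldh1a1, the binding protein Crabp1 (152 to 34 CPM, -2.19), the receptor Rarb (-1.28) and the degrading enzyme Cyp26a1 (-2.87) fell, and the synthesis enzyme Aldh1a3 (-0.46, adjusted p = 0.069) did not pass. Rxrg rose from a mean of 31.8 to 52 CPM (0.7). In the BMP and TGF-β pathway 20 of 47 fell and 13 rose. Id1, a direct BMP target, fell from 99.1, 75.1 and 87 to 48.4, 54.7 and 64.6 CPM (-0.64 ± 0.11), as did Bmp4 (-0.55) and Chrdl1 (-1.81), while Id4 (1.15) rose and Id3 (0.2, adjusted p = 0.059) did not pass. Bmp4 missed the threshold without Day 10 replicate 1 (adjusted p = 0.082) or 3 (0.077) or Day 12 +Wnt replicate 1 (0.077), and Id3 passed without Day 10 replicate 1 (0.0085) or Day 12 +Wnt replicate 1 (0.029). In the Hedgehog list 3 of 12 rose, with Hhip, a Hedgehog-binding inhibitor, from 2.56 to 10.5 CPM (1.93), and 2 fell, with the co-receptor Cdon from 284 to 132 CPM (-1.1). Only 1 Hedgehog gene fell when Day 10 replicate 1 or 2 or Day 12 +Wnt replicate 1 was left out.

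Genes of early neurons formed the group with the largest rise. Of 37 tested, 30 rose, 0 fell and 7 did not pass, and 26 of them rose at least 2-fold, where 6.56% of all tested genes did. The median was 2.06. Compared with Day 12 +Fgf, 25 of the 37 were higher in +Wnt and 5 lower, where 25.2% and 26.3% of all tested genes were. The other 7 did not differ by the test, and the median difference from +Fgf was 1.11. Tubb3 (chr8:123411424-123422015, plus strand), the neuronal β-tubulin, rose from 51.8, 40.5 and 80.6 to 312, 369.6 and 411 CPM (2.7 ± 0.16, adjusted p = 1.3e-09). Dcx, the microtubule protein of migrating neurons, rose from 11.3, 11.2 and 19.6 to 94.8, 108 and 149.8 CPM (3.06 ± 0.24, adjusted p = 2.8e-08). In both genes every Day 12 +Wnt library lay above every Day 10 library, and Day 10 replicate 3 was the highest of its group.

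Proneural factors rose beside these structural genes. Nhlh1 (3.54, 2.94 and 4.81 to 19.9, 23.1 and 29.8 CPM, 2.6 ± 0.19), Ebf2 (4.5, 4.81 and 8.33 to 30.8, 36.1 and 41.8 CPM, 2.61 ± 0.35) and Neurog2 (9.95, 8.29 and 12.3 to 49.2, 42.7 and 37.7 CPM, 2.06 ± 0.13) rose, as did Neurod4 (2.42), Neurod1 (1.79) and Neurog1 (1.19). Neurod6 had no read at Day 10 and was at least 10.8-fold higher at Day 12 +Wnt, taking 3 reads per library as the floor. Its level was low (1.38, 1.88 and 3.57 CPM) and its adjusted p of 0.035 went above 0.05 without any one library but Day 12 +Wnt replicate 1 (0.064 to 0.1) and by edgeR (0.087). Retinal ganglion cell factors did not follow: Atoh7 (0.30 to 0.463 CPM, adjusted p = 0.14), Pou4f2 (0.0955 to 0.132 CPM, adjusted p = 0.76), Isl1 (2.55 to 1.53 CPM, adjusted p = 0.064) and Isl2 (0.484 to 0.174 CPM, adjusted p = 0.075) did not pass. Atoh7 rose without Day 10 replicate 3 (1.05, adjusted p = 0.00048), and Isl1 fell without Day 10 replicate 3 (0.042) or Day 12 +Wnt replicate 3 (0.023). In Day 12 +Fgf tissue Atoh7 and Pou4f2 had means of 11.9 and 12.6 CPM, and both were lower in +Wnt (-4.0 ± 0.31, adjusted p = 1.5e-08, and -4.89 ± 0.32, adjusted p = 1.6e-09).

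Of 32 tested factors of other brain regions, 11 rose, 6 fell and 15 did not pass, where 30.6% of all tested genes rose. Tbr1, a factor of cortical projection neurons, rose from 15.3, 13.6 and 21.3 to 63.7, 71.8 and 88 CPM (2.14 ± 0.88, adjusted p = 0.046), and Eomes, found in cortical intermediate progenitors, from 7.5, 9.63 and 14.7 to 37.9, 39.1 and 41.1 CPM (1.91 ± 0.48, adjusted p = 0.0025). Lhx9, a diencephalic factor, rose from 4.97, 4.68 and 6.88 to 24.3, 25.8 and 33.6 CPM (2.28 ± 0.33, adjusted p = 2e-05). Neither Tbr1, Eomes nor Lhx9 overlapped between groups. Tbr1 missed the threshold when any one library was left out (adjusted p 0.064 to 0.11). Its standard error, 0.88, came from the spread that the fit shares among all groups, not from the libraries compared alone. Lhx1 (2.13), Barhl2 (1.76), Olig2 (2.34), Dmbx1 (1.09) and Pax3 (1.06) rose as well, and the cortical factor Emx2 went from 61.5, 68.7 and 77.5 to 96.3, 134 and 125 CPM. Pax7 (-2.3) and Gata3 (-2.26) fell from low levels. Pax3 missed the threshold without Day 10 replicate 1 (adjusted p = 0.052) or Day 12 +Wnt replicate 3 (0.061). Only 1 of 39 Hox genes was high enough to be tested. Among the Zic genes of dorsal neural tissue, 4 of 5 rose, Zic1 from 73.5 to 175 CPM (1.25) and Zic4 from 3.43 to 18.5 CPM (2.4). That count was 2 without Day 10 replicate 1 or Day 12 +Wnt replicate 3.

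Many axon guidance genes changed, in both directions. In the Slit, Robo and netrin system 11 of 18 tested genes rose and 4 fell. The netrin receptor Dcc rose from 18.4, 18.8 and 31.3 to 124, 140.1 and 164 CPM (2.67 ± 0.17, adjusted p = 2.2e-09), and its antagonist Draxin by 1.41. Another netrin receptor, Unc5b, fell from 164, 128 and 153 to 23.5, 23.6 and 21.6 CPM (-2.67 ± 0.16, adjusted p = 1e-09). Class 3 semaphorins, which repel axons, fell: Sema3a from 97.2, 106 and 102 to 11.4, 12.2 and 12.1 CPM (-3.06 ± 0.08, adjusted p = 1.6e-13), with Sema3d (-1.69), Sema3f (-1.25), Sema3c (-0.98), Sema3b (-0.84) and Sema3e as above. The Sema3e receptor Plxnd1 fell from a mean of 21.1 to 3.82 CPM (-2.39). Sema6d (1.76) and Sema4a (1.86) rose, and of 19 semaphorins 10 fell and 6 rose. Sema3c missed the threshold when any library but Day 10 replicate 2 was left out (adjusted p 0.051 to 0.073). Of 14 Eph receptors 8 rose, led by Epha3 (10.2 to 33.6 CPM, 1.74), and 4 fell, led by Epha2 (20 to 6.57 CPM, -1.56).

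Channel genes rose more often than they fell. Of 34 sodium and calcium channel genes 20 rose and 8 fell, where 30.6% and 29.6% of all tested genes did. Of 65 potassium channel genes 23 rose, near the share of all tested genes, and 11 fell. Scn3a (2.28 to 13.1 CPM, 2.36), Scn3b (1.9) and Kcnj5 (0.63 to 8.03 CPM, 3.14) rose, while Cacna1d (27.2 to 6.14 CPM, -2.09) and Scn4a (-2.1) fell. Of 38 tested receptors for glutamate, GABA and glycine 19 rose, among them Gabra3 (3.52 to 17.2 CPM, 2.25), and 5 fell. Only 3 fell without Day 10 replicate 3 or Day 12 +Wnt replicate 1. When all tested genes were grouped by symbol stem, Scn had the largest share that rose at least 2-fold (6 of 12, 50%), then Syt, the synaptotagmins (5 of 14, 35.7%), and Epha and Efcab (3 of 9 each, 33.3%). On the falling side were Zscan (37.5%), Fgf (36.4%) and Sema (26.3%).

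Notch pathway genes of neurogenesis rose while others fell. Dll1, a ligand of newborn neurons, rose from 24.3, 30.8 and 33.1 to 65, 62.1 and 60.1 CPM (1.09 ± 0.13, adjusted p = 3e-06), and Dll3 by 1.56. The target Hes5 rose from 11.9, 9.63 and 13.9 to 45.5, 49.6 and 42.1 CPM (1.94 ± 0.12, adjusted p = 1.4e-09), whereas the target Hes1 fell from 88.4, 93.8 and 90.2 to 56.9, 57.4 and 49.3 CPM (-0.74 ± 0.09, adjusted p = 4e-06). Jag1, the ligand of the peripheral retina and lens, fell from 70.7, 83.4 and 71.9 to 22.8, 21.9 and 23 CPM (-1.72 ± 0.09, adjusted p = 5.4e-10). Mfng, which modifies Notch receptors, rose by 2.08, and the receptors Notch1 (0.00), Notch2 (0.16) and Notch3 (0.01) did not pass. In all, 10 of 21 tested members rose and 4 fell.

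Cell cycle genes split by phase. Of 35 tested DNA replication genes 25 fell and 1 rose, with a median of -0.33, while of 33 mitosis and spindle genes 20 rose and 0 fell, with a median of 0.27. The replicative helicase subunit Mcm7 fell from 472, 486 and 450.3 to 289, 287 and 274 CPM (-0.73 ± 0.06, adjusted p = 2.5e-08), with the genes Ap4m1 and Cops6 and 2 microRNA genes overlapping it, and Rrm2 fell by 0.61. The mitotic cyclin Ccnb2 rose from 35, 38.2 and 36.2 to 76.4, 75.9 and 78.7 CPM (1.07 ± 0.06, adjusted p = 6.6e-10), and Cenpa by 0.84. Against Day 12 +Fgf, 27 of the 33 mitosis genes were lower in +Wnt and 0 higher. Among cyclins and inhibitors, Cdkn2c (2.31 to 7.89 CPM, 1.64), Ccnd2 (0.68) and Cdkn1b (0.35) rose, and Ccnd1, Cdk6 (-0.83) and Ccnd3 (-0.45) fell. Without Day 10 replicate 1, Ccnd2 had an adjusted p of 0.05 and 3 members of this list rose.

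Targets of p53 fell. Of 15 tested, 12 fell and 2 rose, with a median of -0.63. Ccng1 fell from 763, 783 and 795 to 349, 318 and 322 CPM (-1.24 ± 0.06, adjusted p = 1.1e-10), Phlda3 from 79.1, 72.2 and 79.9 to 28.4, 25 and 24.2 CPM (-1.57 ± 0.12), as did the pro-apoptotic gene Bbc3 (-1.25). Cdkn1a, which encodes p21, fell by 0.52, and Btg2 (0.73) and Sesn1 (0.4) rose. Ccng1, Cdkn1a and Zmat3 were higher in +Wnt than in Day 12 +Fgf (0.49, 0.67 and 0.54), and their fall from Day 10 is not called particular to +Wnt.

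Genes of the amino acid response and of chaperones fell as well. Asns, the asparagine synthetase, fell from 151, 165 and 171 to 47.6, 46.8 and 42.3 CPM (-1.83 ± 0.12, adjusted p = 3.3e-09), and the amino acid transporter Slc7a5 from 222, 241 and 242 to 71.8, 68 and 66.6 CPM (-1.77 ± 0.07, adjusted p = 4.1e-11). The serine synthesis genes Phgdh (-1.15), Psat1 (-0.92) and Shmt2 (-1.04) fell, while the ER chaperone Hspa5 (-0.02) did not pass and Xbp1 rose by 0.62. Day 10 replicate 2 was the highest Day 10 library for Trib3 (4.63, 13.7 and 4.66 CPM), a stress-induced pseudokinase that stood at 1.51, 1.18 and 1.52 CPM in +Wnt. In this list 11 of 19 fell and 5 rose. Of 10 heat shock genes 8 fell and 0 rose, with Hspa8, the constitutive chaperone, from 4673, 4495 and 4607 to 2995, 2977 and 3000.4 CPM (-0.62 ± 0.05).

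Lysosomal genes rose nearly as a whole. Of 52 tested entries 43 rose, 1 fell and 8 did not pass, where 30.6% of all tested genes rose. The changes were moderate, with a median of 0.44 and 2 at 2-fold or more. Lamp2, a lysosomal membrane protein, rose from 235, 224 and 216 to 433, 436 and 421 CPM (0.93 ± 0.06, adjusted p = 1.2e-09). The β-hexosaminidase subunit Hexa rose from 84.6, 76.2 and 70.7 to 158, 161 and 161 CPM (1.05 ± 0.08, adjusted p = 2.6e-08), the lipase Lipa by 1.34 and the peptidase Tpp1 by 0.89. Of the 15 subunits of the proton pump, 14 rose, among them Atp6v1a from 139, 142 and 139 to 235, 215 and 208 CPM (0.64 ± 0.05) and Atp6v0d1 by 0.81. Lamp2, Hexa, Lipa, Tpp1 and Atp6v1a had no overlap between the groups. Ctsd fell from 517, 475 and 465 to 368, 383 and 359 CPM (-0.39 ± 0.09). Ctsh rested on 1 library (15.5, 0.974 and 1.39 CPM in Day 12 +Wnt) and did not pass. Against Day 12 +Fgf, 41 of the 52 were higher in +Wnt and 3 lower.

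Windows were matched for 40 of the lysosomal genes, and 14 of the 40 (35%) held the palindrome CACGTG, the E-box letters that MITF, TFE factors and other bHLH proteins bind, against 8.09% of all 27025 genes with a window and 11.5% of the 10199 tested ones. Of 14 melanin genes with a window 5 (35.7%) held it, of 23 in the Myc and ribosome biogenesis list 6 (26.1%), and of 27 early neuron genes none. So did 4 of 14 sterol genes (28.6%) and 3 of 12 Wnt feedback targets (25.0%). Among all genes with a window that rose at least 2-fold 8.61% held it, and among those that fell at least 2-fold 8.99%. The letters thus also stood before genes that fell. Lamp1 and Mcoln1 are shown because they rose (0.31 and 0.72) and hold several copies, 4 and 2, in windows at chr8:13158911-13159210 and chr8:3500269-3500568, both on the plus strand of GRCm38.p6 (RefSeq), 5′ to 3′ with the letters in capitals.
Lamp1: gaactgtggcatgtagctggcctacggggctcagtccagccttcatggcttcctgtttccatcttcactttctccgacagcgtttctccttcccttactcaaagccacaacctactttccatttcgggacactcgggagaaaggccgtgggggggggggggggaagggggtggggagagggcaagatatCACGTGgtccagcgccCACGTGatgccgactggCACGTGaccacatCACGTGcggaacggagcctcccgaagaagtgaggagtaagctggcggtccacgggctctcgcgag
Mcoln1: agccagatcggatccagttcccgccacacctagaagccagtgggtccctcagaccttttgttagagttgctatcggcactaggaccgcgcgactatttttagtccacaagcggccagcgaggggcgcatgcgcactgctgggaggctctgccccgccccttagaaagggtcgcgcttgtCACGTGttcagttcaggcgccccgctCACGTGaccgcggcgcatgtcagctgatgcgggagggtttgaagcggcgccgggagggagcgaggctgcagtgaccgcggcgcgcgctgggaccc
In Lamp1 the copies begin 61, 45, 28 and 15 bases before the start site, and in Mcoln1 71 and 45 bases before it. Ctsd, the lysosomal gene that fell, also holds 2 copies, beginning 245 and 98 bases before its start site.

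Among metabolic genes, sterol synthesis and respiratory chain genes rose more often than they fell. Of 23 sterol genes 17 rose and 1 fell (median 0.37), with Dhcr7 from 54.7, 55.9 and 53.7 to 98, 95.4 and 100.4 CPM (0.83 ± 0.07). Compared with Day 12 +Fgf, 3 of the 23 were higher in +Wnt, 8 were lower and 12 did not differ by the test. Of 79 respiratory chain subunit genes 51 rose and 5 fell, but the median was 0.2. Of 32 glycolysis and hypoxia genes 15 rose and 2 fell, and of the 14 hypoxia response genes among them 7 rose and 7 did not pass. Bnip3, a mitophagy receptor induced by hypoxia, went from 33.4, 39.7 and 30.6 to 208, 112 and 178 CPM (2.22 ± 0.24, adjusted p = 8.3e-07), and the lactate exporter Slc16a3 from 10.6, 15.4 and 9.78 to 91.8, 27.7 and 66.5 CPM (2.21 ± 0.35, adjusted p = 4.6e-05). In both, Day 12 +Wnt replicate 2 was the lowest and replicate 1 the highest of the group, and Day 12 +Fgf was spread as widely (73.3, 153 and 66.8 CPM for Bnip3). The glycolytic enzyme Tpi1 rose from 335, 377 and 325 to 983, 689 and 829 CPM (1.26 ± 0.14), Hk2 fell by 0.83, and Pgk1 (0.33, adjusted p = 0.064) and Ldha (0.49, adjusted p = 0.074) did not pass. Ldha passed without Day 12 +Wnt replicate 2 (adjusted p = 0.0031), and the falls were 4 without Day 12 +Wnt replicate 1 and 1 without Day 10 replicate 2 or Day 12 +Wnt replicate 2 or 3. Of 12 fatty acid genes 6 rose, with Scd2 from 1447 to 2610.1 CPM (0.85), and 2 fell. In glycogen metabolism, which GSK3 is known to restrain, Gys1, the glycogen synthase, rose from 39.9, 36.8 and 33.2 to 70.2, 64.5 and 60.6 CPM (0.83 ± 0.07), Ppp1r3c by 1.97, and the branching enzyme Gbe1 fell by 0.63. Gys1 and Ppp1r3c did not differ from Day 12 +Fgf by the test (0.11, adjusted p = 0.22, and 0.43, adjusted p = 0.22), though Gys1 did without Day 12 +Fgf replicate 2 (0.048).

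**Figure D4:**
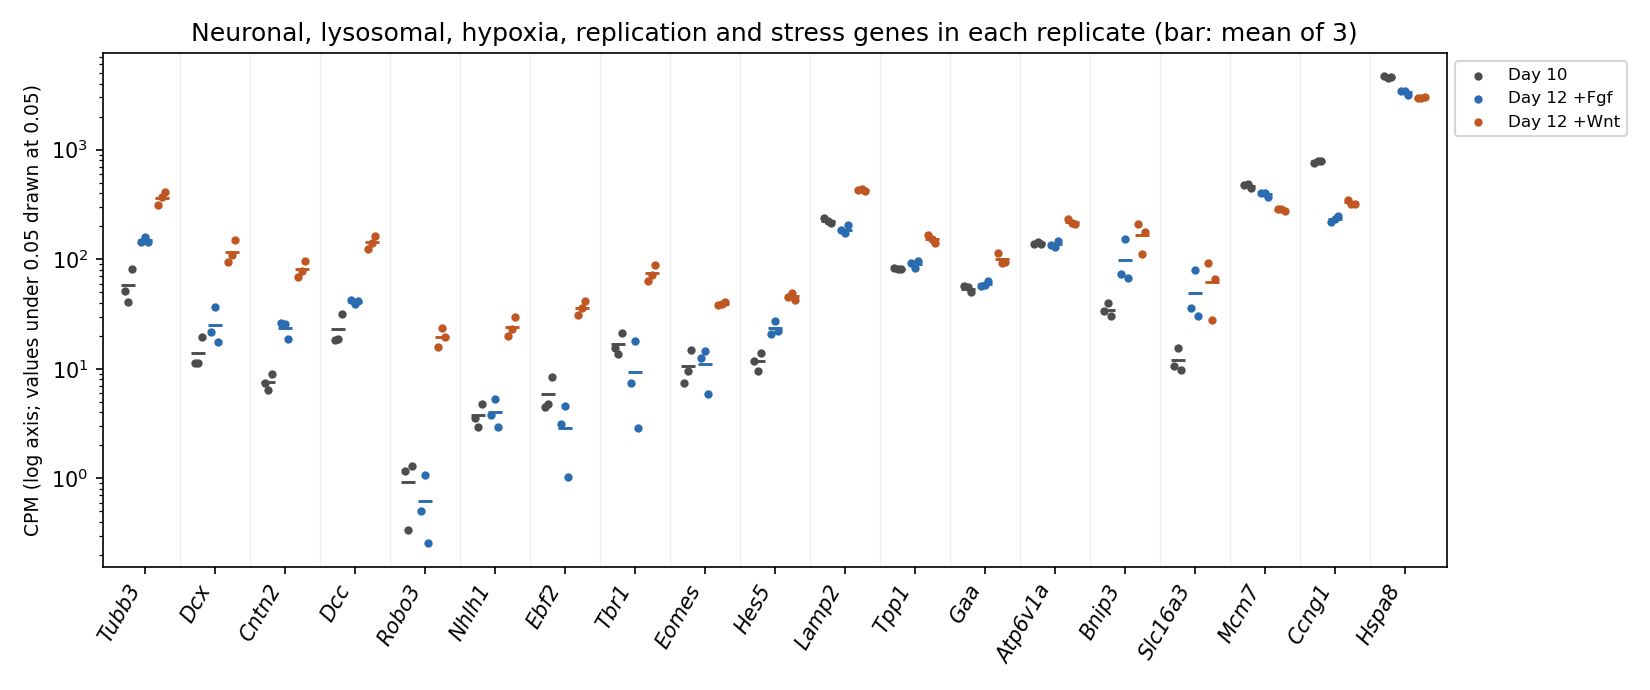
CPM on a log axis of neuronal, Notch, lysosomal, hypoxia, replication, p53 and chaperone genes in each library of Day 10 (grey), Day 12 +Fgf (blue) and Day 12 +Wnt (orange), with bars at the means of 3. Tubb3 rises from 57.6 to 364 CPM, Lamp2 from 225 to 429.8 CPM with little spread, and Slc16a3 in +Wnt stands at 91.8, 27.7 and 66.5 CPM.

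Imprinted growth genes fell more than they rose. H19 (chr7:142575529-142578143, minus strand), a long noncoding RNA that hosts a microRNA, fell from 1399.5, 1747 and 1459 to 371, 267 and 306 CPM (-2.29 ± 0.13, adjusted p = 9.2e-10), and its neighbour Igf2, with an antisense transcript, from 373, 391 and 326 to 148, 163 and 152 CPM (-1.23 ± 0.14, adjusted p = 1.2e-06). Plagl1, a zinc finger factor, fell from 474, 619 and 608 to 149, 126 and 130.5 CPM (-2.06 ± 0.10, adjusted p = 1.6e-10), and Grb10, an adaptor that restrains growth factor receptors, from 34.8, 42.7 and 57.8 to 2.45, 3.2 and 4.44 CPM (-3.64 ± 0.21, adjusted p = 1e-09). These 4 genes had no overlap between the groups. Nnat was among those that rose. In all 8 of 17 fell and 4 rose. The data do not separate the parental alleles.

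Metal handling genes moved in both directions. The metallothioneins, which bind zinc and copper, fell, Mt1 from 91.9, 74.7 and 87.4 to 28, 25.5 and 20.1 CPM (-1.78 ± 0.15) and Mt2 from 68.3, 57.8 and 71.8 to 13.3, 10.6 and 6.29 CPM (-2.73 ± 0.34), as did the transferrin receptor Tfrc (-1.08) and ceruloplasmin, Cp (-1.68). Slc11a1, a metal transporter of lysosomal membranes, rose from 5.59, 3.94 and 3.9 to 20.4, 15.5 and 14 CPM (1.83 ± 0.22), with the copper pumps Atp7b (0.99) and Atp7a. Of 20 genes 9 rose and 7 fell. Mt1 was higher in +Wnt than in Day 12 +Fgf (0.66, adjusted p = 0.0017).

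**Figure D5:**
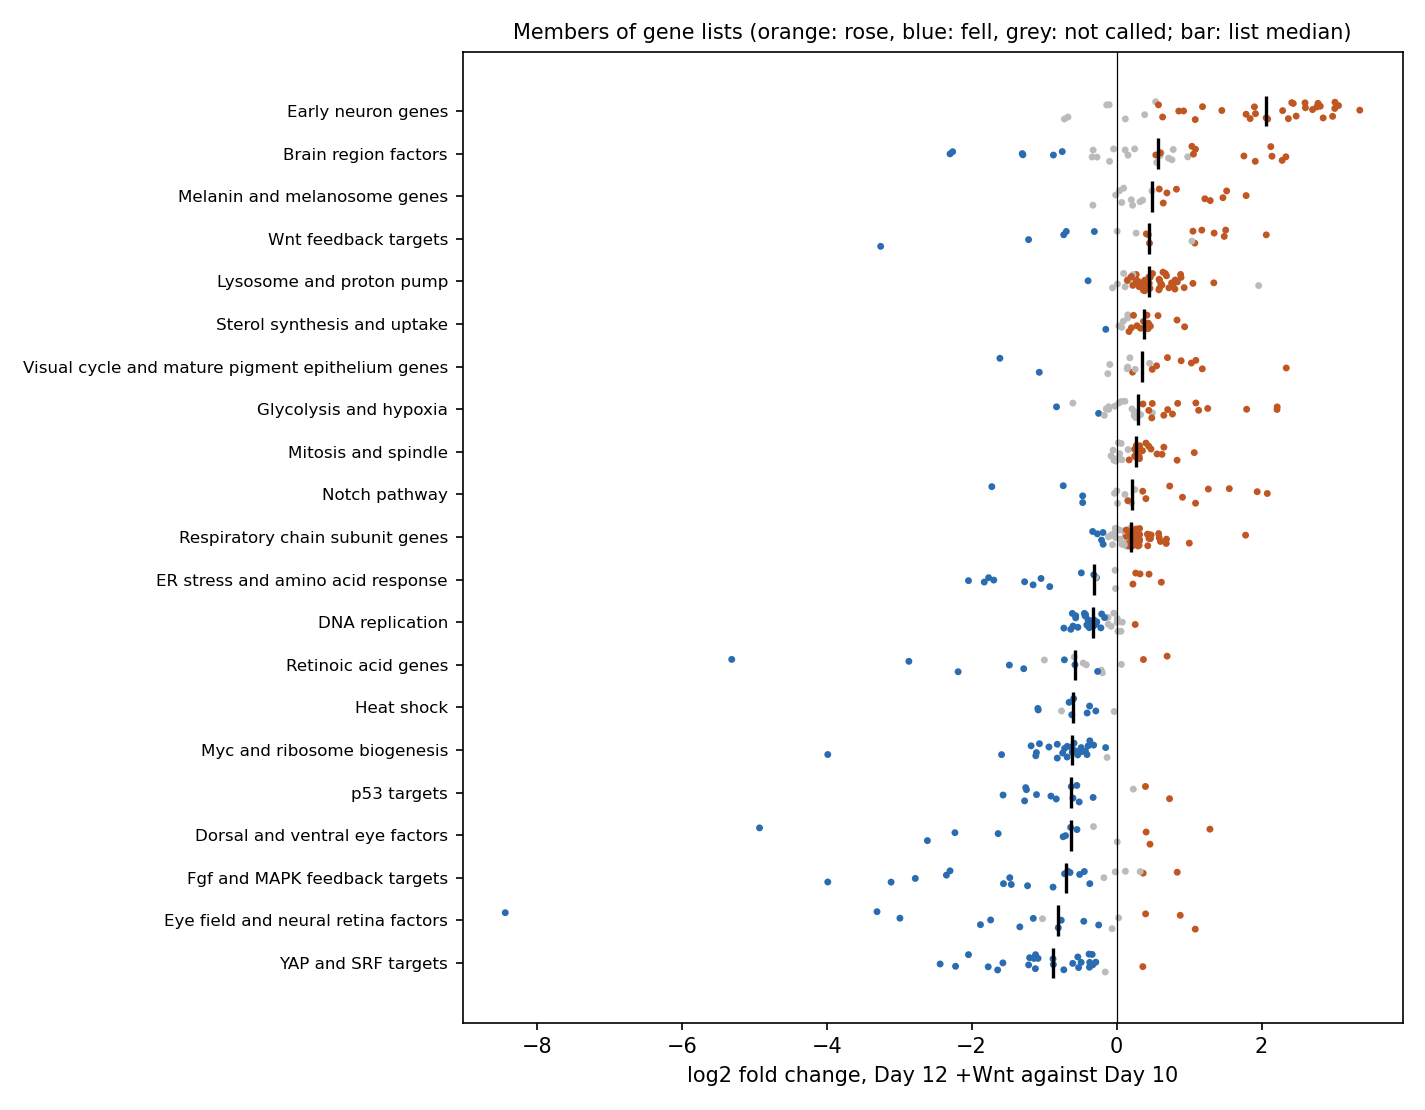
Log2 fold change of each tested member (points) of the gene lists, Day 12 +Wnt against Day 10, with members that rose in orange, those that fell in blue, those that did not pass in grey, and list medians as bars. Early neuron genes have the highest median (2.06) and YAP and SRF targets the lowest (-0.87) of the lists drawn.

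Markers of cells that dissection could carry over were present at low to moderate levels. The summed level of 9 endothelial and blood markers was 39.3 to 65.0 CPM in the Day 10 libraries and 8.0 to 10.7 CPM in Day 12 +Wnt, with Ptprc at 0 in both groups, and at Day 10 most of it was Kdr, which fell from 34.3, 58.4 and 54.3 to 3.15, 3.27 and 6.82 CPM (-3.43 ± 0.26) and which retinal progenitors also express. The 10 lens and surface ectoderm markers summed to 133.8 to 185.3 CPM at Day 10 and, without overlap, to 75 to 113 CPM at Day 12 +Wnt, most of it the keratin gene Krt18, which fell (-0.81), with Krt14 at 0 in both groups and Cryaa, Foxe3 and Krt5 at 0 at Day 12 +Wnt. The 7 melanocyte and neural crest markers summed to 39.7 to 43.2 CPM and 33.6 to 40.4 CPM, most of it Kit. The 12 mesenchymal markers summed to 78.2 to 105 CPM and 115 to 155 CPM, with Pdgfra (1.19) and Dcn (1.48) rising. The 8 pluripotency markers summed to 38.0 to 51.9 CPM at Day 10 and 22.2 to 54.8 CPM at Day 12 +Wnt, and among them only Klf4 passed the test (-0.88). The 8 endoderm markers summed to 0.626 to 13.2 CPM in Day 12 +Wnt, the highest in replicate 1 (Sox17 3.9, 0.139 and 0.596 CPM, Gata4 3.9, 0.0696 and 0.728 CPM). The 11 choroid plexus and roof plate markers, of which Otx2 and Rspo1 are also RPE genes, summed to 312 to 334 CPM and 474 to 541 CPM. The 8 mesoderm markers summed to 8.18 to 16.4 CPM and 39 to 42.4 CPM, nearly all of it Eomes, with Mesp1, Mixl1 and Msgn1 at 0. The part of these cells in the changes above was not tested. Leaving out Day 12 +Wnt replicate 1, which held the endoderm markers, 7834 genes passed in place of 8330.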

How the data were processed

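RNA from 15 samples in 5 groups was sequenced from libraries of the TruSeq Stranded mRNA kit. Per the labels and the study's methods, the authors aligned reads to mm10 with TopHat2 (2.0.8b), counted them per gene with Cuffdiff (Cufflinks 2.1.1) and scaled the counts to CPM with edgeR (3.2.4). The strand setting of the counting is not given in the sources used here, so overlapping and near-identical genes may share reads. The deposited values (signal: CPM whose library totals are not exactly equal) were fitted as they are. In all 15 libraries they were whole multiples of 1 read (tolerance 0.01 read), so read counts were recovered, at 12556998 to 16175450 per library. Intervals from such counts cover counting error only.

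Genes with at least 1 CPM of the library's read total in 3 libraries (13845 of 23244 entries) were fitted with limma (3.58.1, R 4.3.3) on log2(CPM + 0.3), as 5 group means with a trend in the variance, and p-values were adjusted over all tested genes. The edgeR (4.0.16) quasi-likelihood test and DESeq2 (1.42.0) on the recovered reads, another pseudocount, filter or scaling, RNA integrity as a covariate, a replicate block, a fit of 6 libraries and leaving out each library were alternatives. Steps were tested on simulated data. Same-numbered samples did not deviate together, so replicate numbers were not used as pairs. All columns of the table were matched to samples (0 without a sample).

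The members and lists were chosen with earlier results of these data known. Named genes were the 12 largest changes each way with at least 10 CPM and no overlap, all tested Wnt targets, Wnt ligands, eye field, pigment factor and melanin genes, and in other lists mainly up to 3 changes each way with at least 5 CPM. Other genes were named after their values were seen, for their known role. A few genes that the rule admits are counted in their lists but not reported here by name. Symbol families had at least 8 tested members. Figures were drawn with matplotlib (3.10.9). Promoter windows came from RefSeq (GRCm38.p6) and gene positions from GENCODE (mm10).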

Additional observations from a re-analysis of the deposited data

Results flagged for a closer look

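In 41 of the 356 genes named, +Wnt and +Fgf treatment moved the level in opposite directions from Day 10, each by at least 2-fold and past its test, and the +Wnt minus +Fgf difference passed the test of the same fit. Of all 13845 tested genes, 147 (1.06%) met the same rule, and the genes named were in part chosen for their values. Both comparisons share the Day 10 libraries. The log2 differences of those higher in +Wnt were for Axin2 (2.69), Ebf2 (3.69), Fzd4 (2.56), Gpr143 (2.37), Lamb3 (2.85), Lhx9 (3.82), Neurog1 (3.37), Pax3 (2.08), Rlbp1 (2.65), Rspo1 (3.16), Rspo3 (3.17), Slc11a1 (3.48), Sp5 (2.14), Trpm1 (2.32) and Tyr (3.04). Signalling readouts (Axin2, Sp5), Wnt receptors and agonists (Fzd4, Rspo1, Rspo3) and pigment cell genes (Tyr, Gpr143, Trpm1, Rlbp1) were among them. Sp5, Rspo1, Rspo3, Neurog1 and Pax3 missed the threshold against Day 10 with RNA integrity as a covariate, as given above.

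Those that fell in +Wnt and rose in +Fgf were Acta2 (-5.77), Anxa1 (-7.41), Cacna1d (-3.21), Ccnd1 (-2.65), Chrdl1 (-3.04), Cnn2 (-2.96), Col4a1 (-2.64), Cp (-3.09), Cyp26a1 (-6.84), Dkk3 (-5.08), Dusp6 (-2.69), Epha2 (-3.06), Etv5 (-2.83), Fgf15 (-4.41), Foxn4 (-5.95), Grb10 (-6.14), Jag1 (-3.19), Junb (-3.37), Kdr (-4.95), Plagl1 (-3.51), Plxnd1 (-4.03), Sema3d (-3.76), Sfrp2 (-4.34), Spry2 (-2.69), Tagln (-6.32) and Wnt9b (-4.45), given as the same difference. They included targets of Fgf signalling (Dusp6, Etv5, Spry2), contractile genes (Tagln, Acta2, Cnn2) and Ccnd1. The +Fgf medium held serum, which cannot be told apart from bFgf.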

How the results depend on the processing

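Between 6941 (RNA integrity as a covariate) and 8450 (no filter on low values) genes changed between Day 10 and Day 12 +Wnt under the alternatives, against 8330, and the share that was higher stayed between 48.9% and 51.0%. DESeq2 called 7898 and edgeR 8330. Leaving out 1 library gave 7528 to 7980 calls, and against Day 12 +Fgf 6200 to 6684 in place of 7131. Counts at 2-fold depended on low genes. With a pseudocount of 1 CPM, 599 genes rose at least 2-fold in place of 908. With a filter of 10 CPM in 3 samples, 909 changed and 297 fell at least 2-fold in place of 1447 and 539, and against Day 12 +Fgf 1113 differed, 590 higher and 523 lower, in place of 1756, 904 and 852. Fewer genes were tested under that filter.

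Same-numbered Day 10 and Day 12 +Wnt samples had correlations of -0.097, -0.106 and 0.111 of their deviations from the group means, so the replicate numbers were not taken as pairs. With the replicate number as a block 8291 genes changed against Day 10 and 7094 differed from Day 12 +Fgf.

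Of 296 genes named in the text and called against Day 10, 42 lost the call under at least 1 alternative. Those lost only outside the RNA integrity and left-out library fits were Axin1 (adjusted p = 0.11) and Fgfr1 (0.21), both by quantile normalization. It turned the direction of Hspa5 against Day 10 (0.118) and of Hspa8 against Day 12 +Fgf (to 0), and the cause was not tested. Genes near 1 CPM are limited by depth, since 1 read is 0.062 to 0.0764 CPM.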

Other observations

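Further gene groups were not part of the comparisons above. Ciliary transport genes, which build the primary cilium, rose in 16 of 25 cases and fell in 0, where 30.6% of all tested genes rose. The median log2 fold change was 0.32, with Wdr34 (0.99), Bbs9 (0.74) and Wdr19 (0.72) leading. Against Day 12 +Fgf, 4 of the 25 were higher in +Wnt, 4 were lower and 17 did not differ by the test (median -0.01). Of 74 mitochondrial ribosomal protein genes 22 fell and 10 rose, where 29.6% and 30.6% of all tested genes did, so the falls were near that share. The median was -0.07, with Mrps18b (-0.74) and Mrpl14 (0.56) at the ends. Among genes of DNA methylation, the maintenance genes Dnmt1 (349 to 256 CPM, -0.45) and Uhrf1 (-0.32) and the de novo enzyme Dnmt3b (-0.82) fell, while the de novo enzyme Dnmt3a rose from 106, 100.4 and 111 to 188, 177 and 177 CPM (0.77 ± 0.05). The Tet genes Tet1 (0.01), Tet2 (0.15) and Tet3 (-0.08) did not pass the test.

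Neural crest factors split, 7 of 17 rising and 4 falling. Tfap2b (4.02 to 15.1 CPM, 1.79) and Ngfr (1.36) rose, Sox8 (-1.89), Msx2 (-1.44) and Ets1 (-1.15) fell, and Twist1 (0.01) and Snai2 (-0.18) did not pass. Only 4 rose without Day 12 +Wnt replicate 3. In the photoreceptor and interneuron list Crx, a photoreceptor factor also found in pineal cells, fell from 9.4, 6.75 and 10.3 to 2.26, 3.13 and 3.24 CPM (-1.51 ± 0.24), as did Prox1 (-1.51) and Foxn4 (-2.31), while Onecut2 (1.05) rose. Of 11 laminin genes, which encode basement membrane proteins, 4 fell and 4 rose, where 29.6% and 30.6% of all tested genes did. Those that fell were Lama1 (-0.83), Lama5 (-0.95), Lamb2 (-0.45) and Lamc1 (-0.44). Those that rose were Lamb3 (1.83), Lama4 (1.36), Lamc3 (0.88) and Lama2 (0.59). Lama2 missed the threshold without Day 10 replicate 1 (adjusted p = 0.063) or 3 (0.082) or Day 12 +Wnt replicate 3 (0.11), and with RNA integrity as a covariate Lama4 (0.056) and Lamc3 (0.12) missed it, and 2 laminin genes and 4 neural crest factors rose. Among crystallins Cryab, a small heat shock protein, fell (-1.07), Cryba2 rose (1.86), and Crybb1, at the floor at Day 10, was at least 17-fold higher.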
